A study of Rattus norvegicus with 12 samples.

Results

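The 4 mature rat miRNAs rno-miR-21-5p, rno-miR-146a-5p, rno-miR-146b-5p and rno-miR-155-5p, written below without the species prefix, were followed in small RNA libraries from serum exosomes of rats given 1 of 2 testicular toxicants or its vehicle. They were chosen by name, as miRNAs linked to inflammation, with earlier results of these data known. All 4 were listed in both raw count tables, out of 436 mature miRNAs listed in either. All groups were male Sprague-Dawley rats of 9 weeks that received a single oral dose, with blood taken 24 h later. One group received the solvent EGME (ethylene glycol monomethyl ether), 2000 mg/kg in water at 10 mL/kg. Another received the compound that the labels call CBZ, 400 mg/kg suspended in corn oil at 5 mL/kg. The water and oil groups received the vehicle alone, and each of the 4 groups had 3 libraries. Whether every library is from its own animal is not stated in the labels, so p-values here measure only how far the libraries differ, and some of that may be technical. The vesicles were pelleted from serum by ultracentrifugation, a method that can also bring down RNA bound to protein particles.

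A miRNA is cut from a hairpin precursor, and usually 1 of the hairpin's arms is loaded into an Argonaute protein and guides it to messenger RNAs that match its seed, bases 2 to 8. Inflammatory signals that act through NF-kappaB raise transcription of the miR-146a and miR-155 genes. miR-146a and its relative miR-146b target the adaptors IRAK1 and TRAF6 and so dampen Toll-like receptor signalling, whereas miR-155 targets the inhibitors SHIP1 and SOCS1 and promotes it. miR-21 is abundant in many cell types, is raised by STAT3 and AP-1, and targets PDCD4. Cells release a part of these miRNAs in vesicles, and serum vesicles come largely from blood cells, platelets, endothelium and liver.

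The sequences below show which of the members can be told apart by their reads, with the seed in capitals. All 4 mature sequences were matched by name in RefSeq (rat build GRCr8).
miR-21-5p: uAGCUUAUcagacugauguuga
miR-146a-5p: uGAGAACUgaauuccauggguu
miR-146b-5p: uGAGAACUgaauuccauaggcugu
miR-155-5p: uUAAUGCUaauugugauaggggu
miR-146a-5p and miR-146b-5p share the seed GAGAACU and formed the only group of members with a common seed. No other mature rat miRNA of the RefSeq table had the seed of a member. Counted from 1 at the 5′ end, the first 17 bases of miR-146a-5p and miR-146b-5p are the same. Within the first 22 bases they differ by G18A and U21C, with the base of miR-146a-5p written first, and miR-146b-5p has 2 further bases at its 3′ end. A read that ends before base 18 matches both. The rule by which such reads were assigned is not given in the sources used here, so the split between miR-146a-5p and miR-146b-5p is uncertain to that extent.

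In GRCr8, miR-21-5p lies at chr10:71902653-71902674 on the minus strand, outside the span of any other annotated gene and closest to the protein-coding gene Vmp1. miR-146a-5p lies at chr10:28350053-28350074 on the minus strand, within the span of the long noncoding RNA gene LOC134480673. miR-146b-5p lies at chr1:255144874-255144897 on the plus strand, within the span of the protein-coding gene C1h10orf95. miR-155-5p lies at chr11:37261117-37261139 on the plus strand, within the long noncoding RNA gene Mir155hg, its host gene.

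Nearly all counts of these hairpins came from the 5p arm. The hairpins are shown with both annotated mature arms in capitals, the 5p arm first.
Mir21: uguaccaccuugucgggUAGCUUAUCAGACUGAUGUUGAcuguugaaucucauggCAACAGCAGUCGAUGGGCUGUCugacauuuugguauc
Mir146a: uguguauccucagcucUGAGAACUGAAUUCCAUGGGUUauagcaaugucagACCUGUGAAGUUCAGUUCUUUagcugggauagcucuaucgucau
Mir146b: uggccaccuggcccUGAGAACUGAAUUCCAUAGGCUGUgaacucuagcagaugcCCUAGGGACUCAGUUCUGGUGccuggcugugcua
Mir155: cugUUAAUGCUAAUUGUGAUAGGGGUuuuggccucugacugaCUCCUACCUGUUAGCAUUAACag
In the water and EGME libraries miR-21-3p had 3 counts against 22094 of miR-21-5p, and miR-146a-3p had 2 counts against 1010 of miR-146a-5p. In the oil and CBZ libraries miR-21-3p had 1 count against 10014 of miR-21-5p, and miR-146b-3p had 1 count against 1683 of miR-146b-5p. miR-146b-3p was not listed for water and EGME, miR-146a-3p was not listed for oil and CBZ, and miR-155-3p was listed in neither table.

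Mature miRNAs took 155085 to 244141 counts per library with water and EGME and 51953 to 132148 with oil and CBZ. Levels are given as counts per 1000000 mature miRNA counts (CPM). At these depths 3 counts, the most that a count of 0 allows, stand for 12.3 to 19.3 CPM with water and EGME and 22.7 to 57.7 CPM with oil and CBZ. Intervals on 1 library are exact 95% binomial (Clopper-Pearson) intervals. Intervals and floors cover counting error only, since the libraries carry no molecular identifiers. The summed level of 4 miRNAs known from testis germ cells ranged from 0 to 62.5 CPM over the 12 libraries, with miR-449a-5p not listed for oil and CBZ. The summed level of 6 red blood cell miRNAs ranged from 62239 to 118702 CPM.

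The members ranged from among the most abundant miRNAs to near the limit of detection, and their order was the same in all 12 libraries: miR-21-5p highest, then miR-146b-5p, miR-146a-5p and miR-155-5p. miR-21-5p made up 1.40% to 2.41% of the miRNA counts and ranked between place 8 and place 12 in each library. miR-146b-5p ranked between place 24 and place 33, miR-146a-5p between place 39 and place 65, and miR-155-5p between place 124 and place 204. The 4 together made up 1.88% to 2.93% of the miRNA counts, of which miR-21-5p gave 73.2% to 88.9%.

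**Figure D1:**
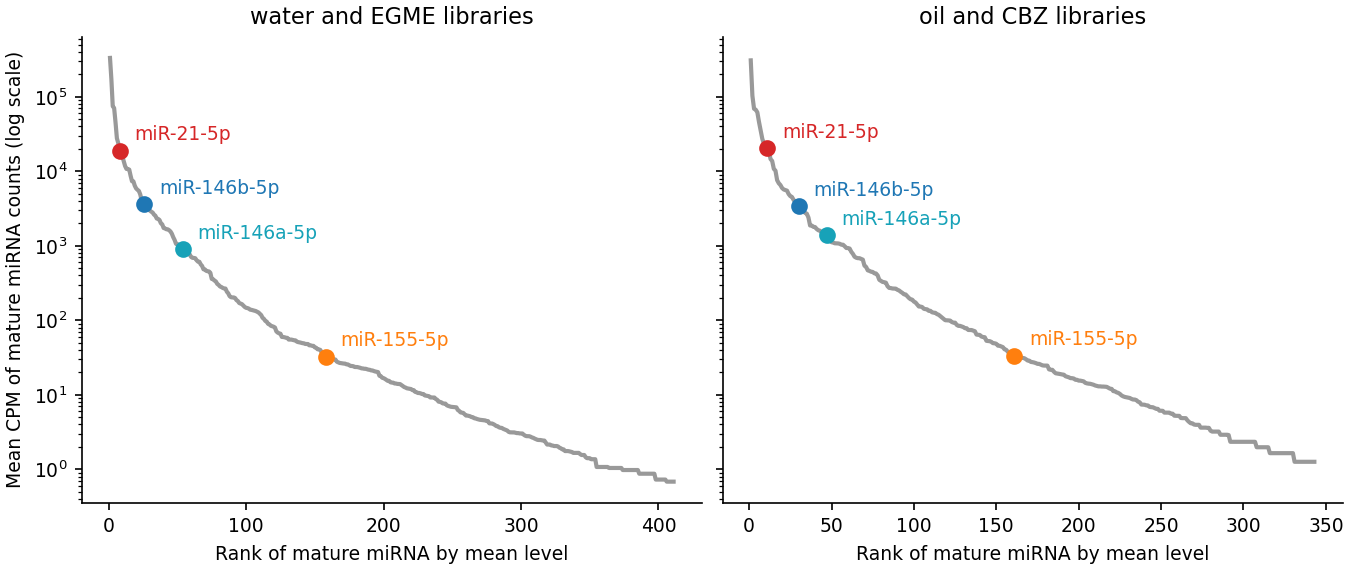
Mean level of every listed mature miRNA (y axis, CPM of mature miRNA counts, log scale) against its rank (x axis), for the 6 water and EGME libraries and the 6 oil and CBZ libraries, with the members marked as points. miR-21-5p sits at rank 8 and rank 11, the miR-146 pair in the upper part of the curve, and miR-155-5p at rank 158 and rank 161.

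By mean level over the 6 water and EGME libraries miR-21-5p (18989 CPM) stood between miR-140-3p (23900 CPM), a cartilage miRNA, and miR-25-3p (17559 CPM), a member of the miR-106b-25 cluster. Their ranges over the libraries overlapped, from 14038 to 22264 CPM for miR-21-5p, from 11482 to 42532 CPM for miR-140-3p and from 11806 to 21251 CPM for miR-25-3p. The next neighbours outward, miR-26a-5p and miR-128-3p, overlapped its range as well. In the oil and CBZ libraries miR-21-5p (20617 CPM) stood between miR-140-3p (23141 CPM) and let-7a-5p (18679 CPM), again with overlapping ranges, as did miR-191a-5p and miR-25-3p further out. The neighbours of miR-146b-5p were miR-3557-5p (3711 CPM) and miR-24-3p (3375 CPM) with water and EGME, and miR-7a-5p (3626 CPM) and miR-30a-5p (3354 CPM) with oil and CBZ. miR-146a-5p stood between miR-30e-5p (927 CPM) and miR-30a-3p (895 CPM), and in the other table between miR-181a-5p (1386 CPM) and miR-22-3p (1361 CPM). miR-155-5p stood between miR-149-5p (36.0 CPM) and miR-125b-5p (32.3 CPM), and between miR-214-3p (35.4 CPM) and miR-184 (33.1 CPM). The range of every neighbour named here overlapped that of its member, so these places in the order are not distinct. Between the members themselves the lowest miR-21-5p library (14038 CPM) was above the highest miR-146b-5p library (4408 CPM), and the lowest miR-146b-5p library (1983 CPM) was level with the highest miR-146a-5p library (1979 CPM), with overlapping counting intervals of 1619 to 2404 and 1666 to 2334 CPM. Within each single library miR-146b-5p was above miR-146a-5p, with a ratio of at least 2.10.

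The first comparison asks whether these miRNAs differed in serum exosomes 24 h after EGME. None of the 3 members that could be tested passed the test, and the EGME libraries overlapped with the water libraries for all 4 members. edgeR's quasi-likelihood test called 13 of 141 mature miRNAs, which is 9.22% (5.67% higher and 3.55% lower with EGME). It called 0 of the 3 members, and none of them had an unadjusted p under 0.05. The groups of all 4 members overlapped, whereas 24.1% of the 141 did not overlap in CPM, 22.7% in CPM scaled by TMM, edgeR's scaling factor, and 13.5% in CPM of all assigned counts. The DESeq2 Wald test and limma on the authors' normalized values also called 0 of the 3. In a preparation of vesicles, fewer vesicles from a cell type and less of a miRNA in each cannot be told apart.

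miR-21-5p was at 20490, 22264 and 16920 CPM in the water libraries and at 18045, 14038 and 22180 CPM in the EGME libraries. The groups overlapped, with EGME library 2 the lowest of the 6 and EGME library 3 just below the highest water library. Counting error was small beside this spread: the SD over libraries was 13.7% of the mean with water and 22.5% with EGME, against a counting error of 1.68% and 1.72%. The group means were 19891 ± 2722 and 18088 ± 4071 CPM (SD, n = 3 libraries each). The log2 difference was -0.08 (SE 0.248, edgeR adjusted p = 0.843), with a 95% interval of 0.672 to 1.33 for the fold. It was 0.10 without EGME library 2 and 0.12 in the fit on all RNA classes (adjusted p = 0.918).

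miR-146b-5p was at 2822, 3631 and 4236 CPM with water and at 3669, 4114 and 3334 CPM with EGME. Every EGME library lay inside the range of the water libraries. The means were 3563 ± 710 and 3706 ± 391 CPM (SD, n = 3 each). The log2 difference was 0.12 (SE 0.255, edgeR adjusted p = 0.780), and the fold had a 95% interval of 0.769 to 1.55.

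miR-146a-5p was at 563, 1003 and 1057 CPM with water and at 931, 1010 and 836 CPM with EGME. Water library 1 was the lowest for both miRNAs of the pair, and the other water libraries overlapped with EGME. The log2 difference was 0.16 (SE 0.263, edgeR adjusted p = 0.762, 95% interval of the fold 0.777 to 1.60), from 875 ± 271 to 926 ± 87.5 CPM (SD, n = 3 each). Without water library 1 it was -0.04, with adjusted p = 0.962. Adjusted p-values over its alternatives ran from 0.521 to 0.962.

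**Figure D2:**
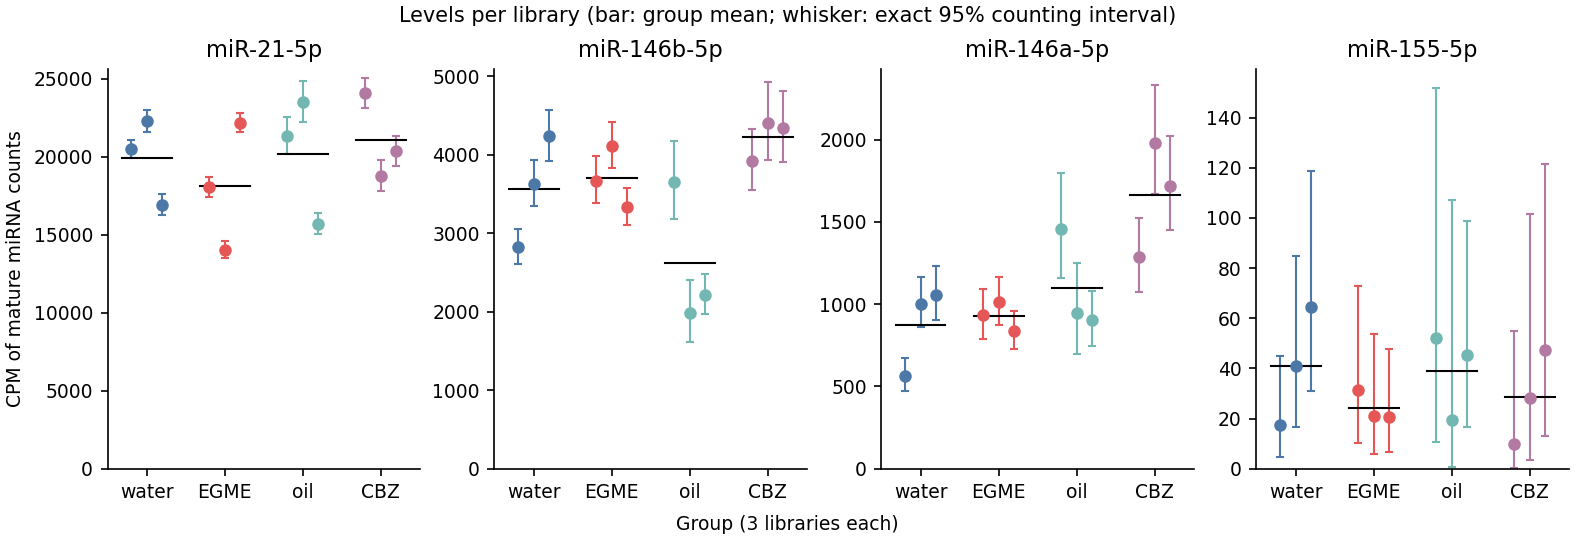
Level of each member (y axes, CPM of mature miRNA counts, each from 0) in each of the 12 libraries by group (x axis); points are libraries, whiskers exact 95% counting intervals and black bars group means. The EGME libraries of miR-21-5p, miR-146b-5p and miR-146a-5p overlap with water, the 3 CBZ libraries of miR-146b-5p (3923 to 4408 CPM) lie above the oil libraries (1983 to 3651 CPM), and the miR-155-5p whiskers overlap in all groups.

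miR-155-5p was near the limit of detection in every library, with 4, 7 and 10 counts with water and 5, 4 and 5 with EGME. It did not pass the filter on low counts in either comparison. The levels were 17.5, 41.1 and 64.5 CPM with water and 31.3, 20.9 and 20.5 CPM with EGME, and the groups overlapped. Summed over each group, 21 counts of 554485 with water and 14 of 595181 with EGME gave a ratio of 0.621, with an exact 95% counting interval of 0.292 to 1.28. A change within this interval was not detectable at this depth. The interval leaves out the spread between libraries, so changes somewhat beyond it may not have been detectable either. With no filter, the log2 difference of miR-155-5p was -0.74 (SE 0.663, edgeR adjusted p = 0.666).

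CBZ was compared with oil in the same way. No member passed the test, and miR-146b-5p was the only one whose CBZ libraries all lay above the oil libraries in CPM. Of 115 mature miRNAs, 13 were called by edgeR, which is 11.3% (7.83% higher and 3.48% lower with CBZ). None of the 3 members tested was called or had an unadjusted p under 0.05. The DESeq2 Wald test and limma also called 0 of the 3. By DESeq2 miR-146b-5p had an unadjusted p of 0.0447 and an adjusted p of 0.164.

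miR-146b-5p was at 3651, 1983 and 2210 CPM in the oil libraries and at 3923, 4408 and 4342 CPM in the CBZ libraries. Every CBZ library was above every oil library, although the counting interval of oil library 1, 3175 to 4177 CPM, reached into the CBZ range. The means were 2614 ± 905 CPM with oil and 4224 ± 263 CPM with CBZ (SD, n = 3 each). On the scale used in the fit, TMM-scaled CPM, the same libraries were at 2932, 2693 and 2729 with oil and 3710, 3917 and 3949 with CBZ, again without overlap, with means of 2785 ± 129 and 3859 ± 130 (SD, n = 3 each). The log2 difference was 0.47 (SE 0.236, edgeR unadjusted p = 0.0524, adjusted p = 0.219), higher in 3 of 3 CBZ libraries, and the fold had a 95% interval of 0.997 to 1.92. Groups without overlap were common in this comparison: 26 of 115 miRNAs, or 22.6%, did not overlap in CPM and 36, or 31.3%, in TMM-scaled CPM. On each scale 20 of the 115, or 17.4%, were higher with CBZ without overlap. In the fit on all RNA classes, where none of 244 features (0%) was called and 64 had an unadjusted p under 0.05, the log2 difference of miR-146b-5p was 0.53 (SE 0.202, edgeR unadjusted p = 0.0365, adjusted p = 0.146), with a 95% interval of 0.045 to 1.02.

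miR-146a-5p was at 1453, 943 and 901 CPM with oil and at 1285, 1979 and 1720 CPM with CBZ. The groups overlapped through oil library 1, which was above CBZ library 1. The means were 1099 ± 308 and 1661 ± 351 CPM (SD, n = 3 each). The log2 difference was 0.35 (SE 0.261, edgeR adjusted p = 0.398), with a 95% interval of 0.889 to 1.84 for the fold. As CPM of all assigned counts, miR-146a-5p did not overlap, at 221 ± 25.9 with oil and 331 ± 33.5 with CBZ, and on that scale 30.4% of the tested miRNAs did not overlap, with 25.2% of the tested miRNAs higher. The sum of miR-146a-5p and miR-146b-5p had a log2 difference of 0.47 between CBZ and oil (SE 0.210, adjusted p = 0.176 by edgeR). This sum does not depend on the split of shared reads only if each such read was counted once, which is not known.

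miR-21-5p was at 21315, 23521 and 15679 CPM with oil and at 24060, 18782 and 20345 CPM with CBZ. The groups overlapped, with means of 20172 ± 4044 and 21062 ± 2711 CPM (SD, n = 3 each). The log2 difference in the fit was -0.24 (SE 0.254, edgeR adjusted p = 0.569), with a 95% interval of 0.596 to 1.21 for the fold. Its sign differs from that of the means in CPM because the fit scales the libraries by TMM, which puts oil library 2 at 31948 and the other oil libraries at 17121 and 19364. Oil library 2 had the fewest counts and the lowest TMM factor, 0.739, and without it the log2 difference of miR-21-5p was 0.03 (adjusted p = 0.947) and that of miR-146b-5p 0.39 (adjusted p = 0.391).

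miR-155-5p had 3, 1 and 6 counts with oil and 1, 2 and 4 with CBZ, which is 51.9, 19.2 and 45.4 CPM and 9.88, 28.1 and 47.5 CPM. In oil library 2 and in CBZ libraries 1 and 2 it was below the level that a count of 0 would still allow. The ratio of the summed counts was 0.660, with an exact 95% counting interval of 0.213 to 1.92. With no filter, the log2 difference was -0.96 (SE 0.763, edgeR adjusted p = 0.651). That is farther from 0 than the summed ratio, which is not scaled by TMM as the fit is. With a library left out it ran from -1.53 to -0.53, so at these counts its size is not known.

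**Figure D3:**
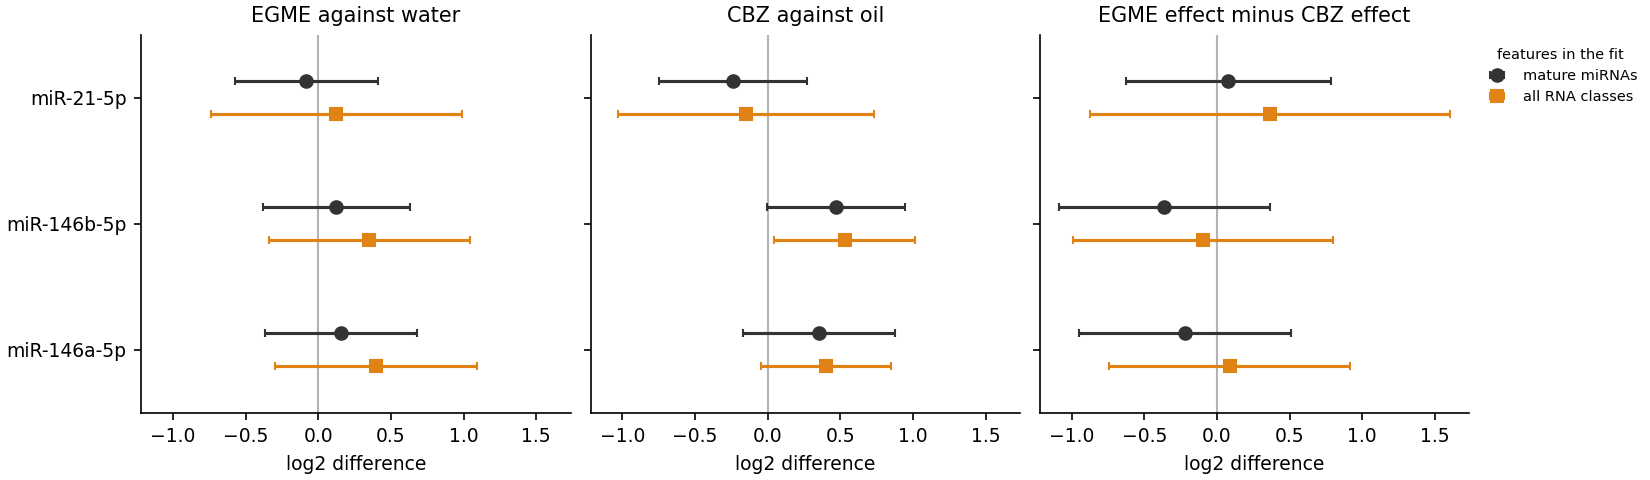
Log2 difference (x axis) of the 3 members that passed the filter, with 95% intervals, for EGME against water, CBZ against oil and the difference between the 2 effects; circles are fits on mature miRNAs, squares fits on all RNA classes. All intervals on mature miRNAs reach 0, with miR-146b-5p in CBZ against oil (0.47) closest to lying above it; in the fit on all RNA classes its interval runs from 0.045 to 1.02.

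Some markers of other cells differed between the groups, as did other miRNAs. Of all miRNAs tested, 11.3% were called and 22.6% did not overlap in CPM with CBZ, and 9.22% and 24.1% with EGME. The summed level of 3 myeloid miRNAs was 3927 to 4446 CPM with oil and 2611 to 3286 CPM with CBZ. Among these 3, 1 was called lower, miR-223-3p, which is in the platelet list as well and is counted there again. The summed level of 6 platelet miRNAs was 22867 to 38737 CPM with oil and 35956 to 51285 CPM with CBZ, which overlapped, with 2 members called higher (miR-24-3p and miR-126a-3p), 1 called lower (miR-223-3p) and miR-197-3p not listed. The red blood cell sum overlapped too, at 67234 to 118702 CPM with oil and 62239 to 76993 CPM with CBZ, with 1 of 6 members called lower (miR-451-5p). The summed level of 3 liver miRNAs was 4207 to 8062 CPM with oil and 7272 to 17608 CPM with CBZ. These overlapped, with 0 of 2 tested members called. Of the liver miRNAs, miR-122-5p, the main miRNA of hepatocytes, had 144, 157 and 151 counts with oil and 1058, 630 and 318 with CBZ, at unequal depth. Its log2 difference was 1.53 (SE 0.536, edgeR adjusted p = 0.138). That of miR-192-5p was 0.38 (edgeR adjusted p = 0.356). miR-194-5p was not tested, with 12, 4 and 13 counts with oil and 10, 9 and 10 with CBZ. With water and EGME the liver sum was 3872 to 8413 and 4977 to 9333 CPM, which overlapped, with 0 of 3 called. The log2 differences went both ways, at 0.83 for miR-122-5p, -0.40 for miR-192-5p and -0.94 for miR-194-5p. In the EGME comparison 3 lymphoid miRNAs summed to 3326 to 3998 CPM with water and 1556 to 2423 CPM with EGME, with 1 of 3 called lower (miR-150-5p), and the platelet sum was 15901 to 18319 and 19759 to 22001 CPM, with 0 of 5 tested members called. Other sums overlapped. The lymphoid sum was 1867 to 4775 CPM with oil and 2500 to 4253 CPM with CBZ. The myeloid sum was 2521 to 3737 CPM with water and 2238 to 2994 CPM with EGME. The red blood cell sum was 64361 to 92382 CPM with water and 80699 to 110580 CPM with EGME. No member of these lists was called in these comparisons, apart from miR-150-5p above. The part of these cells in the levels of the members was not tested.

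The difference between the EGME and the CBZ effect was fitted over all 12 libraries on the mature miRNAs listed in both tables. Of the miRNAs tested, edgeR called none (0%), although 16 had an unadjusted p under 0.05. The DESeq2 Wald test called 1, which was no member. The EGME effect minus the CBZ effect was 0.08 for miR-21-5p (SE 0.346, adjusted p = 0.926), -0.22 for miR-146a-5p (SE 0.357, adjusted p = 0.926) and -0.36 for miR-146b-5p (SE 0.354, adjusted p = 0.838). For miR-146b-5p the 95% interval of this difference ran from -1.08 to 0.36 on the log2 scale, so the 2 effects were not shown to differ, nor to be alike.

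The ratio of miR-146b-5p to miR-146a-5p was measured in each library, since the pair shares its seed. It was 5.01, 3.62 and 4.01 in the water libraries and 3.94, 4.07 and 3.99 in the EGME libraries. With oil it was 2.51, 2.10 and 2.45, and with CBZ 3.05, 2.23 and 2.52. The log2 ratio differed by -0.06 between EGME and water (exact permutation p = 0.8, two-sided) and by 0.14 between CBZ and oil (exact permutation p = 0.4), with Benjamini-Hochberg adjusted values of 0.8 over the 2 tests. An exact test of 3 against 3 libraries cannot give a p below 0.1, so these tests could not have passed the threshold and do not show that the ratio stayed the same. The lowest of the 6 water and EGME libraries, 3.62, was above the highest of the 6 oil and CBZ libraries, 3.05. This separation was noticed in the data and is given as a description. The vehicle, the table and the depth differed together and cannot be told apart.

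**Figure D4:**
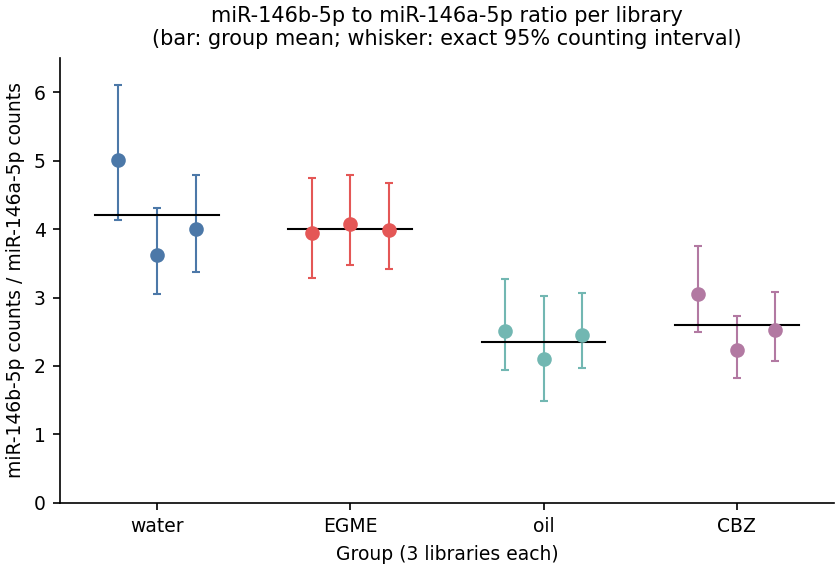
Ratio of miR-146b-5p to miR-146a-5p counts (y axis, linear, from 0) in each library by group (x axis), with exact 95% counting intervals as whiskers and group means as black bars. The water and EGME libraries lie between 3.62 and 5.01 and the oil and CBZ libraries between 2.10 and 3.05.

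The miRNAs with the most similar pattern across the 12 libraries were found for 3 members, by the Pearson coefficient of log2(CPM + 1) among 107 other miRNAs with a mean of at least 10 counts in each table. miR-155-5p had too few counts for this. The points share library, depth and the common total, and the coefficients are descriptions with no test. miR-21-5p was most like miR-142-3p (0.76), a miRNA of blood cells, then miR-103-3p (0.60) and miR-26b-5p (0.58). With the group means taken out these were 0.81, 0.63 and 0.52. miR-146a-5p was most like miR-99a-5p (0.90), miR-140-5p (0.84) and miR-423-3p (0.83), which became 0.78, 0.67 and 0.59 within groups. miR-146b-5p was most like miR-100-5p (0.89), miR-99b-5p (0.83) and miR-143-3p (0.83), the last abundant in smooth muscle, and within groups these were 0.89, 0.76 and 0.64. Over all libraries the median coefficient with the miRNAs compared was 0.15 for miR-21-5p, 0.42 for miR-146a-5p and 0.22 for miR-146b-5p. The coefficient between miR-146a-5p and miR-146b-5p was 0.57 over all libraries and 0.87 after the group means were taken out. Over all libraries miR-146b-5p came in place 41 for miR-146a-5p, and miR-146a-5p in place 19 for miR-146b-5p. The uncertain split of shared reads bears on this coefficient too. That of miR-21-5p was 0.06 with miR-146a-5p and -0.15 with miR-146b-5p over all libraries, and -0.24 and -0.27 within groups.

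Of 20 other miRNAs linked to inflammation 19 were listed for water and EGME and 18 for oil and CBZ. With EGME 8 were abundant enough to test and edgeR called 0 of them in either direction, beside 9.22% of all miRNAs tested. Their median log2 difference was -0.12, beside -0.08 over all 141 miRNAs, and single values ran from -0.66 to 0.19. With CBZ 10 were tested, of which 1 was called lower and 0 called higher, beside 11.3% called of all miRNAs tested. Their median was -0.27 beside 0.03 over all 115, and single values ran from -1.18 to 1.48, with 4 of 10 above 0. The value farthest from 0 was that of miR-125a-5p, picked out after the values were seen, at 1.48 (SE 0.579, edgeR adjusted p = 0.0768). Its levels were 22.7 to 121 CPM with oil and 166 to 253 CPM with CBZ, with a mean of 11.2 counts per library. The lowest oil value was at the floor of 3 counts. miR-125a-5p passed the filter on low counts only through the CBZ libraries, where it was high, so its value is no support for a rise. The 1 called lower was miR-223-3p, which restrains neutrophil activity. It was at 2422 ± 262 CPM with oil and 1327 ± 277 CPM with CBZ (SD, n = 3 each), a log2 difference of -1.18 (SE 0.257, edgeR adjusted p = 0.00168). In the fit on all RNA classes its adjusted p was 0.133. It was at 1754 ± 296 CPM with water and 1582 ± 494 CPM with EGME, a log2 difference of -0.09 (SE 0.261, edgeR adjusted p = 0.843). let-7i-5p, which targets the Toll-like receptor TLR4 in human cells, was the most abundant of the list, at 180235 ± 10641 CPM with water, 163648 ± 20124 with EGME, 103181 ± 11226 with oil and 103258 ± 12691 with CBZ (SD, n = 3 each). It did not pass the test in either comparison, with edgeR adjusted p = 0.807 for EGME and 0.573 for CBZ.

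The direction of the smaller differences depended on the scaling, which also moved the median over all miRNAs of the CBZ comparison. Upper quartile scaling put the median of all 115 at -0.35 and no scaling put it at 0.24, against 0.03 with TMM. Relative to that median, miR-146b-5p was at 0.44 with TMM, 0.45 with upper quartile scaling and 0.46 with no scaling. miR-146a-5p was at 0.33, 0.33 and 0.37 and miR-21-5p at -0.26, -0.26 and -0.17. A change of scaling moves all miRNAs of a library together, and the median with them. Values relative to the median therefore had to stay nearly the same, and their stability is no support for a difference.

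**Figure D5:**
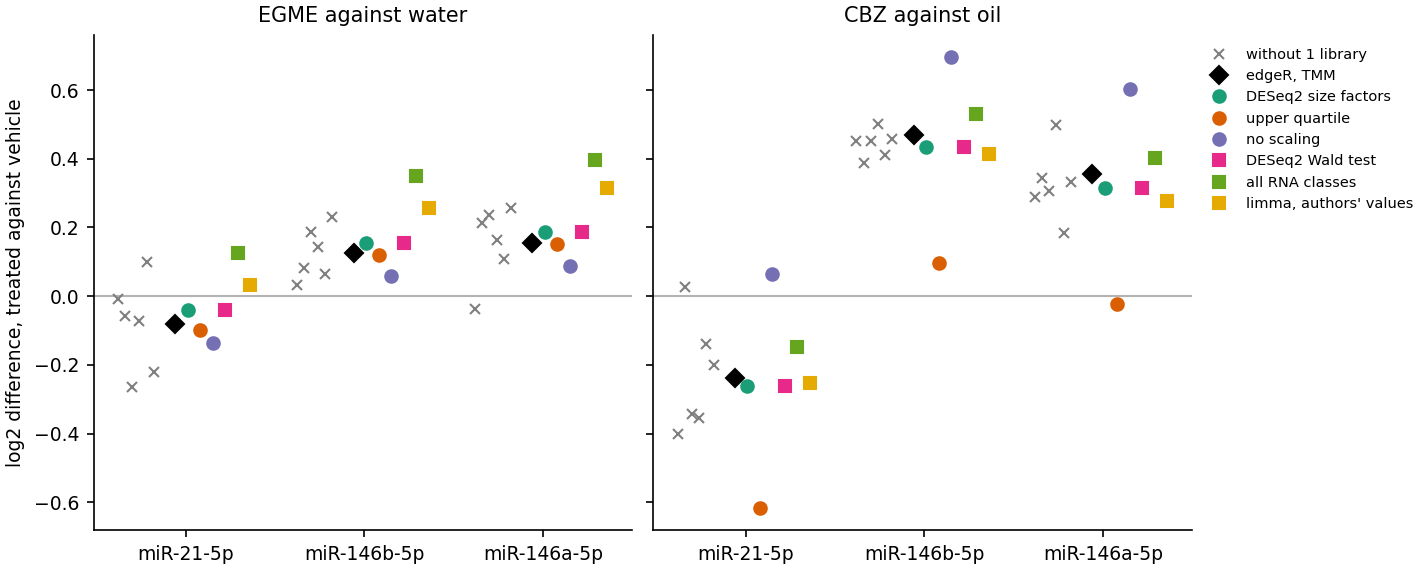
Log2 difference between treated and vehicle libraries (y axis) for the 3 tested members (x axis) with TMM scaling (diamond), under other scalings, tests and feature sets, and with each library left out in turn (crosses). For miR-146b-5p in CBZ against oil all values lie above 0, from 0.10 to 0.70, whereas those of miR-21-5p lie on both sides of 0 in each comparison.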

How the data were processed

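Small RNA libraries of serum exosome pellets (NEBNext kit, MiSeq) were available for 12 samples, from blood clotted overnight, per the labels' protocols. The authors deposited raw read counts per mature miRNA and other small RNA, 1 table for water and EGME and 1 for oil and CBZ. They also deposited normalized values (a signal per feature), which equal the raw counts times 1 constant per library. The submitters' processing notes name edgeR. For the aligner, the genome build and reads with several matches, the method is not given in the sources used here. Total assigned counts were 608892 to 1235814 per library with water and EGME and 196460 to 598200 with oil and CBZ, of which 14.7% to 28.1% were mature miRNA.

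From the raw counts of mature miRNAs, edgeR 4.0.16 (R 4.3.3) was run with TMM scaling, filterByExpr at a minimum count of 10 and the robust quasi-likelihood test. Tests were two-sided, with Benjamini-Hochberg adjustment over all miRNAs tested and a threshold of 0.05. miR-155-5p did not pass the filter, so its fitted values come from the fit with no filter. DESeq2 1.42.0, limma 3.58.1 on log2(normalized value + 1), other scalings and filters, a fit on all RNA classes and leaving out each library were alternatives, and the tests were tried on simulated data. The text names the members, their opposite arms, neighbours by rank, the 3 most similar miRNAs and, of the list of other inflammation-linked miRNAs, those called and the 2 most abundant. The members and lists were chosen with earlier results of these data known.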

Additional observations from a re-analysis of the deposited data

How the results depend on the processing

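No member was called under any of the alternatives run, and miR-146b-5p kept its sign throughout, from 0.03 to 0.35 for EGME and from 0.10 to 0.70 for CBZ (adjusted p from 0.146 to 0.894). For miR-21-5p, EGME against water was 0.12 with all RNA classes and 0.033 with limma, and -0.26 to 0.10 with a library left out. CBZ against oil was 0.065 with no scaling and -0.40 to 0.027 with a library left out, and the difference of effects was -0.20 with no scaling and -0.23 to 0.32 with a library left out. For miR-146a-5p, leaving out a library gave -0.038 to 0.26 for EGME, upper quartile scaling gave -0.023 for CBZ, and all RNA classes gave 0.089 for the difference of effects. For miR-155-5p the difference of effects was -0.16 with no scaling and -0.21 to 0.98 with a library left out. The log2 ratio of the miR-146 pair, an alternative added after the data were seen, ranged from -0.16 to 0.071 for EGME and from 0.014 to 0.24 for CBZ with a library left out.

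The 13 EGME calls became 6 with DESeq2 size factors, 8 with no scaling, 0 with all RNA classes (59 at an unadjusted p under 0.05), 1 with limma and 3 with all 12 libraries in 1 fit. Leaving out a library gave 3 to 19: leaving out EGME library 1 gave 3, EGME library 3 gave 6 and water library 2 gave 7. The 13 CBZ calls became 3 with no scaling, 0 with all RNA classes (64 at an unadjusted p under 0.05), 1 with limma and 6 with all 12 libraries in 1 fit. For CBZ the range was 0 to 19: leaving out CBZ library 1 gave 0 (23 at unadjusted p under 0.05), CBZ library 2 gave 0 (18) and CBZ library 3 gave 7. The split of 9 higher and 4 lower CBZ calls became 1 and 13 with upper quartile scaling, 3 and 11 with no filter, and 9 and 10 without miR-148a-3p. For the difference of effects 1 was called with no filter, 1 by DESeq2, and 0 to 7 with a library left out, 7 of them without oil library 1. The cause of these shifts was not tested.

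With a replicate block the calls were 17 for EGME, 13 for CBZ and 1 for the difference of effects. Deviations of same-numbered libraries correlated at 0.12, 0.24 and -0.01 for EGME and 0.09, -0.17 and 0.04 for CBZ, and not every library correlated best with its own number, so the numbers were not taken to pair the libraries. Depth limits miR-155-5p most, with 1 to 10 counts per library.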
